A study of Homo sapiens with 64 samples.

Results

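Interferon-stimulated genes are described here across all 64 arrays of a drug study in BEAS-2B cells. The members were taken from a list of 41 gene symbols, as every probe set annotated to 1 of them. Of these, 40 were measured, by 71 probe sets, out of 19775 genes tested, and STAT2 was not analysed here. BEAS-2B is a human airway epithelial line immortalised with viral DNA, so a single line stands for the airway epithelium. Cells in serum-free keratinocyte medium received vehicle, 10 nM indacaterol, 10 nM GSK 256066 or both drugs (10 nM each) for 1, 2, 6 or 18 h. The 16 groups of treatment and time held 4 replicates each, numbered 1 to 4 in the labels. Indacaterol is a long-acting bronchodilator that acts on the beta-2 adrenoceptor and raises cyclic AMP (cAMP), and GSK 256066 inhibits phosphodiesterase 4, which breaks cAMP down. No group received an interferon or a virus. Whether the replicates came from separate cultures is not stated, and the p-values then describe only how far these arrays scatter.

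Interferons are secreted proteins that cells release on sensing foreign nucleic acid. Type I and type III interferons signal through the kinases JAK1 and TYK2 to transcription factors that bind the interferon-stimulated response element (ISRE) in promoters. The induced genes encode RNA sensors, proteins that trap or destroy viral RNA, and regulators of the pathway itself. Epithelial cells also express many of them at a resting level. Indacaterol and GSK 256066 work through cAMP, whose best known transcriptional route is the factor CREB and its element TGACGTCA.

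The ISRE is the sequence that many of these genes share, and it was not used to choose them. RefSeq promoters (build GRCh38.p14, the 250 bases before each start) were matched by symbol for 32 of the 40 members, as 43 promoters. The ISRE core (GAAA, any 2 bases, GAAA), searched on both strands, stood in 26 of 43 (60.5%), in 22 members, against 3.02% of all 35116 promoters of that length. The CREB element TGACGTCA stood in 0 of 43, against 1.65% of all promoters. Overlapping matches were counted once per promoter, and a match of letters is no evidence of binding. The stretches of 50 bases that follow show the ISRE core in 9 of the 22 members that hold one. Among the members called in a comparison of treatments or times, SAMD9L, HERC6, RIGI, IRF1, CMPK2 and IRF9 had matched promoters but no ISRE core in any. None of these is shown. They run 5′ to 3′ in the direction of transcription, and the capitals mark the ISRE core on either strand. ISG15 lies at chr1:1013370-1013419 (+), IFIT1 at chr10:89392500-89392549 (+), RSAD2 at chr2:6877612-6877661 (+) and IFI44 at chr1:78649751-78649800 (+). IFI44L lies at chr1:78620355-78620404 (+), MX1 at chr21:41431834-41431883 (+), ISG20 at chr15:88638927-88638976 (+), DDX60 at chr4:168318776-168318825 (-) and GBP1 at chr1:89065306-89065355 (-).
ISG15: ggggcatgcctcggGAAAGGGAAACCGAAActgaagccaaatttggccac
IFIT1: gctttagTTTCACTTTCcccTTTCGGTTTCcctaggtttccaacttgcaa
RSAD2: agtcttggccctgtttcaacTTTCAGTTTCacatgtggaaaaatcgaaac
IFI44: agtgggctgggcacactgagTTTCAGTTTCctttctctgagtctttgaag
IFI44L: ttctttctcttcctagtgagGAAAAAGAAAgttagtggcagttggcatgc
MX1: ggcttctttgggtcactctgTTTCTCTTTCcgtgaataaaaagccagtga
ISG20: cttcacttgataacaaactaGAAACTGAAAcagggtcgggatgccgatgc
DDX60: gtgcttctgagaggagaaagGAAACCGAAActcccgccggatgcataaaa
GBP1: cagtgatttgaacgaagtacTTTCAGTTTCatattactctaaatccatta

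The 16 arrays of replicate 3, which span every group, stood apart in epithelial genes. The summed signal of 11 epithelial markers ran from 330400 to 480000 there and from 13240 to 24660 in the other 48 arrays, mostly through the keratins KRT14 and KRT5. KRT8 and KRT18, keratins of simple epithelia, were bright in every array. The summed signal of 13 leukocyte markers ran from 1179 to 1872 over all arrays, with the pan-leukocyte gene PTPRC at 14.82 to 42.38. The brighter ones were LYZ (197.6 to 513.7), CD53 (214.4 to 531.8) and CD14 (24.88 to 289.5). The summed signal of 10 fibroblast markers ran from 8238 to 15530, mostly through COL1A1. The 6 plasmacytoid dendritic cell markers (CLEC4C at 25.6 to 55.75) summed to 540.5 to 1561, mostly through TCF4 (275.2 to 470.4) and NRP1 (98.34 to 1051). The part of these differences in any result was not tested. Of 6 cAMP-responsive genes (NR4A1 to NR4A3, PDE4B, PDE4D and LINC00473), 4 rose with indacaterol at 1 h, against 0.212% of all genes called by limma, and 6 at 2 h, against 1.22%. With GSK 256066 alone 0 of 6 were called by limma at 1, 2, 6 or 18 h (2, 3, 1 and 0 at an unadjusted p under 0.05).

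Signals are probe-set intensities. Differences were taken after adding 16 to each signal and taking log2, so changes of dim genes come out too small. Each gene was read from its brightest probe set, and since signals of different probe sets are not comparable, each gene is compared only with itself. A call is an adjusted p under 0.05 from limma with Benjamini-Hochberg adjustment over all 19775 genes, two-sided. Of the 40 members, 38 had a mean signal of at least 100. The chemokines CXCL10 and CXCL11, which draw T cells to sites of interferon action, were dim, with mean signals of 26.1 and 12.85. For 22 members a further probe set existed. The 20 further probe sets with a mean signal of at least 100 correlated with the one used at a median r of 0.929 (0.505 to 0.991) over the 64 arrays, and the 10 dimmer ones at a median of 0.277.

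These genes differed widely between the replicate numbers. Averaged over the 16 arrays of each number, 31 of 40 members were highest in replicate 2, 6 in replicate 1, 2 in replicate 3 and 1 in replicate 4. The lowest replicate was 3 for 23 members, 4 for 16 and 2 for 1. An F-test on the replicate number called 38 of 40 members, against 55.6% of all genes, and the exceptions were CXCL10 and CXCL11. Replicates 1 and 2 both lay above replicates 3 and 4 in 29 of the 38 brighter members (76.3%), against 13.6% of 13454 genes of that brightness. That split was not planned and follows the order just given for these same members, which are correlated. The share is therefore a description and no test. The median range over the 4 replicate means was 0.904 on the log2 scale in these members and 0.208 in those genes.

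The size of the spread differed by gene. MX2, a GTPase that blocks nuclear entry of viral genomes, had the widest, with mean signals of 458.2, 804.5, 114.6 and 369.6 in replicates 1 to 4, a range of 2.72 on the log2 scale. OAS2, which makes the oligoadenylate messenger that activates RNase L, averaged 515.0, 751.8, 223.1 and 352.8 in the same order. OAS1, of the same family, averaged 524.0, 767.4, 265.4 and 407.2. Each of these was lowest in replicate 3 and highest in replicate 2. ISG15, a ubiquitin-like modifier, was bright throughout, at 6356, 7281, 3927 and 5124. EPSTI1 had the narrowest range of the 38 (0.34), at 1057, 1137, 928.6 and 889.6.

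A few members did not follow that order. ISG20, an exonuclease that degrades viral RNA, was highest in replicate 3, with mean signals of 413.6, 312.8, 629.1 and 258.6. IFI44L was also highest there, at 728.2, 565.1, 910.3 and 309.1, whereas IFI44, its neighbour on chromosome 1, was highest in replicate 2. IRF1, OASL, TRIM22, XAF1 and BST2 were highest in replicate 1. The keratin difference of replicate 3 runs along the same numbers, and its part in these differences was not tested. Other epithelial genes also differed among replicates 1, 2 and 4, such as KRT7, with mean signals of 2636, 536.1 and 449.5, and CDH1, with 418.9, 148.1 and 121.1.

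**Figure D1:**
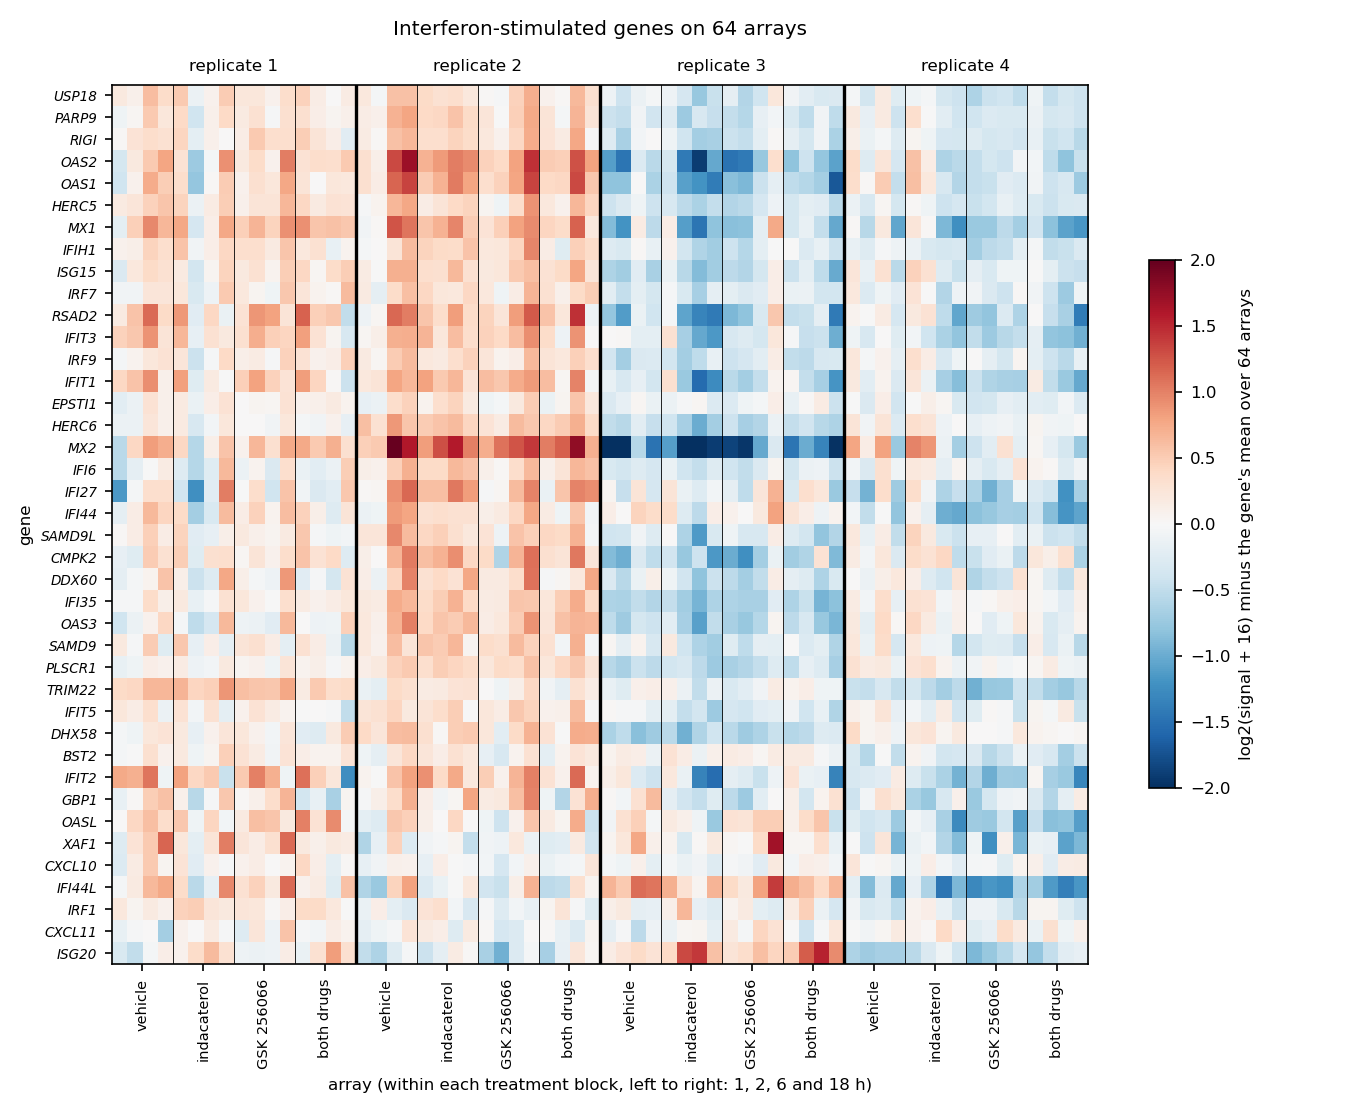
Heat map of the log2(signal + 16) of 40 interferon-stimulated genes (rows) on 64 arrays (columns, ordered by replicate number), each gene relative to its own mean, with colour limited to 2 log2 units either way. Replicate 2 is the highest for 31 genes, and replicates 3 and 4 are the lowest for 39.

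The members moved together from array to array. Over the 703 pairs of the 38 brighter members, the median correlation across the 64 arrays was 0.637, against 0.0465 for pairs of genes of that brightness. It was 0.714 once group means were removed and 0.587 once replicate means were removed as well, against 0.063 and 0.168. These are descriptions, since the arrays share replicate numbers and treatments. Each member was also set against the per-array median log2 value of the other brighter members. USP18 (an ISG15 protease that damps interferon signalling) stood at r = 0.914. PARP9 and RIGI, an RNA sensor, both stood at 0.901. ISG20 (-0.208), IRF1 (0.0516) and CXCL11 (-0.0867) did not follow that median, and IFI44L had 0.329, or 0.913 once group and replicate means were removed.

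For genes outside the list, a common profile was taken as the per-array median of the brighter members' standardised log2 values. The 10 other genes with the highest correlation to that profile over the 64 arrays were PARP14 (0.897), TRIM14 (0.896), PARP12 (0.886), DTX3L (0.855), SP110 (0.823), PNPT1 (0.798), DDX60L (0.778), PARP10 (0.756), ZNFX1 (0.753) and SERPINB7 (0.753). Once group and replicate means were removed, these ran from 0.323 (SERPINB7) to 0.8 (TRIM14), with ZNFX1 at 0.39 and PNPT1 at 0.474. Several members are also neighbours in the genome. No other coding gene lies between IFI44L and IFI44 on chromosome 1, CMPK2 and RSAD2 on chromosome 2, CXCL10 and CXCL11 or HERC6 and HERC5 on chromosome 4, SAMD9 and SAMD9L on chromosome 7, or MX2 and MX1 on chromosome 21. The same holds for OAS1, OAS3 and OAS2 on chromosome 12, and for IFIT2 and IFIT3 on chromosome 10, where IFIT1B alone separates them from IFIT1 and IFIT5.

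The first question was whether raising cAMP changed these genes. With each drug set against vehicle at the same time, 0 of 40 members were called in any of the 12 comparisons by limma. The unadjusted p was under 0.05 for 0, 1, 3 and 0 members with indacaterol at 1, 2, 6 and 18 h, for 0, 0, 1 and 1 with GSK 256066, and for 0, 0, 3 and 3 with both drugs. Over all genes that share was 7.05%, 8.01%, 4.78% and 4.41% with indacaterol, 7.08%, 4.54%, 1.74% and 3.54% with GSK 256066, and 9.34%, 6.73%, 7.62% and 5.19% with both drugs. At the adjusted threshold, indacaterol called 0.212%, 1.22%, 0.268% and 0.00506% at these times, GSK 256066 0.00506%, 0%, 0% and 0%, and both drugs 0.283%, 1.06%, 0.759% and 0.0354%. Averaged over the 4 times, 0 of 40 members were called with indacaterol, GSK 256066 or both, with 3, 0 and 2 at an unadjusted p under 0.05, against 1.85%, 0.759% and 2.86% of all genes at the adjusted threshold and 13.9%, 12.4% and 14.9% at the unadjusted one. The F-test for a treatment effect that differed between times called 0 of 40 (0 at an unadjusted p under 0.05), against 0.369% of all genes (2.9% unadjusted).

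Many members leaned the same way within a comparison. At 1 h with indacaterol 39 of 40 differences were above 0 (42% of all genes), with a median of 0.23 on the log2 scale, and at 6 h 36 of 40 were below 0 (51.6% of all genes), with a median of -0.38. At 6 h GSK 256066 alone gave 38 of 40 below 0 (median -0.26), against 55% of all genes, and both drugs gave 33 of 40 (median -0.25), against 49.3%. These 3 comparisons share the vehicle arrays of 6 h, in which the members' median log2 signal averaged 9.84 ± 0.24 (SD, n = 4). At 6 h it averaged 9.40 ± 0.49 with indacaterol, 9.55 ± 0.33 with GSK 256066 and 9.58 ± 0.46 with both, so the groups overlapped. At 18 h the medians were -0.11 with indacaterol, 0.16 with GSK 256066 and -0.23 with both. The members are correlated with each other, so these counts are not of independent genes. Medians over all genes lay near 0 throughout.

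**Figure D2:**
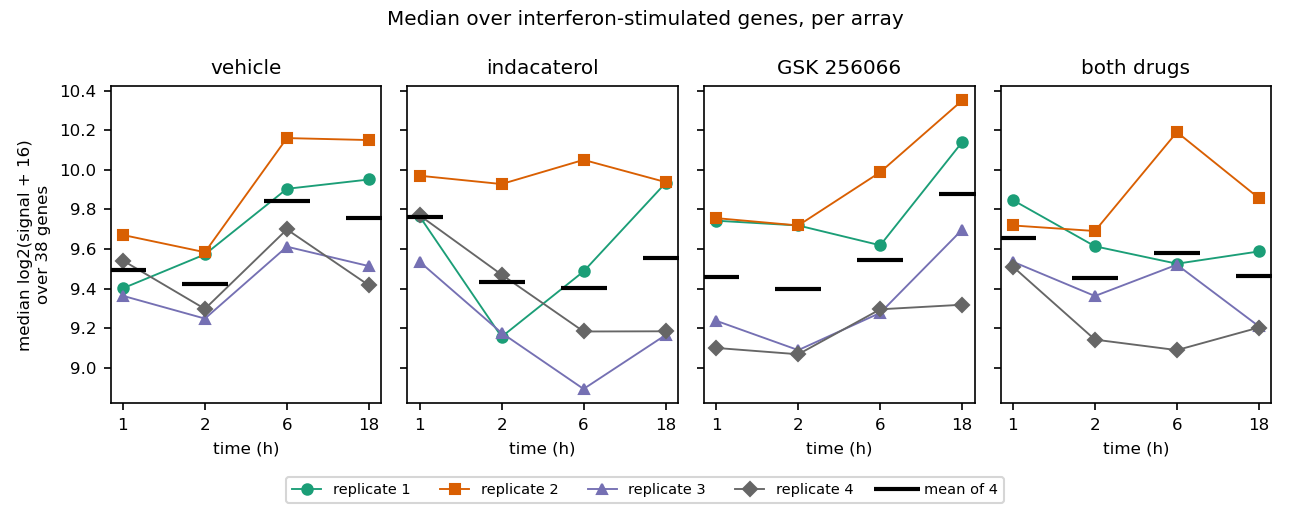
Median log2(signal + 16) of the brighter interferon-stimulated genes on each array, by treatment and time, with replicates 1 to 4 marked. Replicate 2 lies high and replicates 3 and 4 low in most groups, and the 6 h vehicle arrays average 9.84 against 9.40 with indacaterol.

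Arrays of one replicate number deviated together at 6 h, so the comparison was also made with the replicate number as a block. In that fit 7 of 40 members were called with indacaterol at 6 h, against 2.32% of all genes, with ISG20 higher and 6 others lower. Without the arrays of replicate 3, 1 of the 7, ISG20, was called, against 1.54% of all genes. The 6 others stayed lower in that smaller fit, IFI44 at -0.83 ± 0.27 (SE) and IFI44L at -0.82. SAMD9L stood at -0.58, IFIT1 at -0.54, USP18 at -0.44 and HERC6 at -0.30. The block fit was not repeated without another replicate, so the part of replicate 3 in the lost calls was not tested. IFI44, a cytoplasmic protein of antiviral function, had signals of 835.1, 959.3, 718.4 and 523.7 in vehicle replicates 1 to 4. With indacaterol it had 421.0, 649.5, 360.1 and 257.8. Each array was below the vehicle array of its number, but the groups overlapped. The difference was -0.86 ± 0.21 (SE), with an adjusted p of 0.00905 in limma with the block, 0.786 without it and 0.163 with the block but without replicate 3.

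IFI44L had 888.8, 764.8, 1239 and 460.4 in vehicle and 499.9, 555.4, 585.3 and 193.0 with indacaterol. Its difference was -0.88 ± 0.23 (SE; adjusted p = 0.024 in limma with the block, 1 without it and 0.311 without replicate 3). SAMD9L, a translation inhibitor of antiviral and antiproliferative function, had 933.1, 1299, 632.0 and 739.0 in vehicle and 591.5, 829.4, 292.4 and 536.3 with indacaterol. All 4 arrays lay below their numbered partners. The difference was -0.70 ± 0.15 (SE; adjusted p = 0.00352 in limma with the block, 0.70 without it and 0.0982 without replicate 3).

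IFIT1, which binds viral RNA lacking the host's cap methylation, had 3015, 2730, 1398 and 1652 in vehicle and 1784, 2507, 529.6 and 981.6 with indacaterol, overlapping ranges with every numbered pair lower. Its difference was -0.75 ± 0.20 (SE; adjusted p = 0.0289 in limma with the block, 1 without it and 0.449 without replicate 3). USP18 had 373.1, 363.7, 216.8 and 271.5 in vehicle and 254.3, 302.8, 133.1 and 183.3 with indacaterol. HERC6, a ligase of the family that attaches ISG15, had 400.9, 630.8, 287.7 and 404.5 in vehicle and 322.8, 528.4, 161.8 and 313.0 with indacaterol. Both were lower in 4 of 4 numbered pairs. With the block USP18 differed by -0.49 (adjusted p = 0.0316 in limma) and HERC6 by -0.42 (0.0271), and both adjusted p-values were 1 without the block and 0.249 and 0.444 without replicate 3.

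With both drugs at 6 h the block called 3 of 40, against 5.29% of all genes. IFI44 had 434.9, 774.0, 488.8 and 222.0, a difference of -0.74 (adjusted p = 0.0222 in limma with the block, 0.607 without it, 0.138 without replicate 3). SAMD9L had 624.7, 1081, 378.8 and 496.6, a difference of -0.53 (0.0305 in limma with the block, 0.687 without it, 0.204 without replicate 3). ISG20 was the third. With GSK 256066 alone at 6 h the block called 0 of 40 by limma, and 0% of all genes. At 18 h with both drugs the block called RIGI, against 0.405% of all genes. RIGI had 541.8, 698.3, 435.1 and 361.4 in vehicle and 370.7, 434.1, 273.6 and 290.8 with both drugs, a difference of -0.53 (adjusted p = 0.0436 in limma with the block, 0.932 without it, 0.416 without replicate 3).

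**Figure D3:**
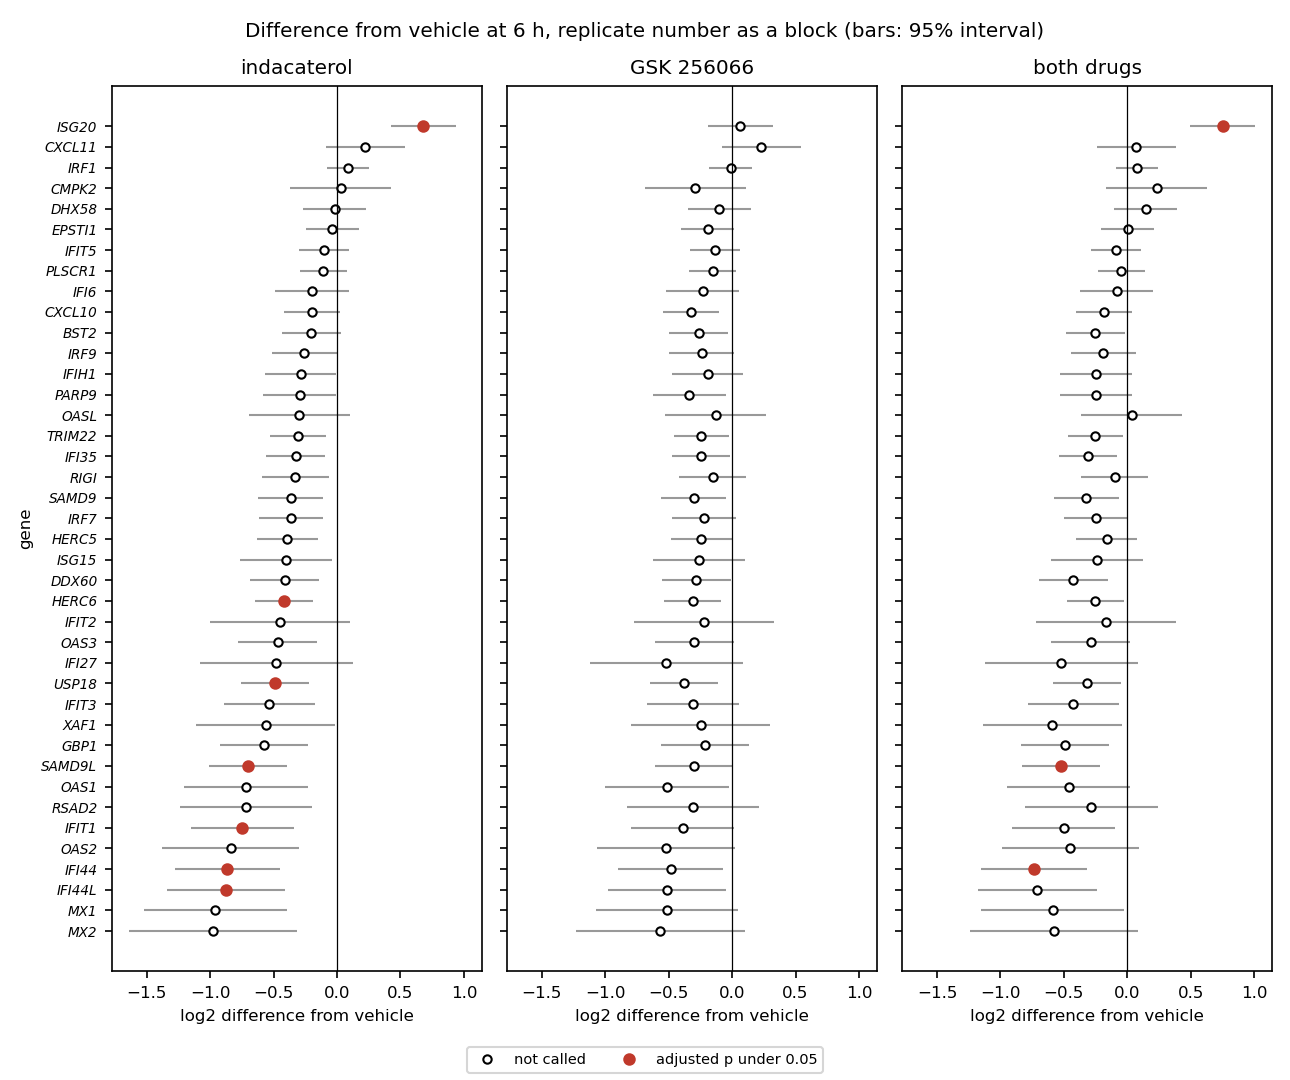
Differences from vehicle at 6 h on the log2(signal + 16) scale for each interferon-stimulated gene with each treatment, with 95% intervals from the limma fit with the replicate block and filled points for called genes. Most points lie below 0, 36 of 40 with indacaterol, and ISG20 lies to the right with indacaterol (0.68) and with both drugs (0.75).

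ISG20 was the 1 member called higher at 6 h with the block. At 6 h it had 358.2, 305.8, 486.6 and 226.7 in vehicle replicates 1 to 4, and 581.7, 417.9, 1012 and 346.4 with indacaterol. Each array was above its numbered vehicle partner, while the groups overlapped through the replicate differences. The difference was 0.68 ± 0.13 (SE; adjusted p = 0.000425 in limma with the block, 1 without it), and 0.56 without replicate 3 (adjusted p = 0.00352). With both drugs at 6 h ISG20 had 670.4, 440.1, 1115 and 317.7, a difference of 0.75 (adjusted p = 4.56e-05 in limma with the block, 0.654 without it, 0.000947 without replicate 3). With GSK 256066 it had 344.6, 302.8, 569.1 and 244.5, above vehicle in 2 of 4 pairs.

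At 2 h ISG20 had 258.2, 237.1, 450.8 and 220.2 in vehicle, 484.7, 324.4, 948.0 and 299.8 with indacaterol, and 462.4, 327.7, 876.4 and 260.3 with both drugs. All 4 numbered pairs were higher with each. With both drugs the difference was 0.60 (adjusted p = 0.00136 in limma with the block, 0.942 without it, 0.01 without replicate 3), and the block called 1 of 40 against 3.5% of all genes. With indacaterol it was 0.69 (adjusted p = 0.695 in limma). Averaged over the 4 times, ISG20 was higher with indacaterol in 16 of 16 numbered pairs, by 0.44 (adjusted p = 1.39e-06 in limma with the block, 0.248 without it), and with both drugs in 14 of 16, also by 0.44 (1.34e-06 and 0.231). GSK 256066 gave 0.04. The second ISG20 probe set correlated with the first at r = 0.991.

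With the block, the averages over the 4 times called 4 of 40 members with indacaterol, against 7.89% of all genes, and 4 with both drugs, against 10.7%. IRF1, a transcription factor induced by interferon gamma, was higher with indacaterol by 0.17 in 13 of 16 pairs (adjusted p = 0.00557 in limma with the block, 0.252 without it, 0.00318 without replicate 3). Its 2 h signals were 1144, 1202, 1259 and 883.8 in vehicle, 1557, 1388, 1748 and 1198 with indacaterol and 1435, 1320, 1530 and 1134 with both drugs. IFIT5 was lower with indacaterol by 0.16 (block adjusted p = 0.029 in limma, 0.442 without it) and with both drugs by 0.19 (0.00868, 0.338 without it). IFIT3, which stabilises IFIT1, was lower with both drugs by 0.33 in 13 of 16 pairs (0.00983 in limma with the block, 0.409 without it). Without replicate 3, none of the IFIT5 and IFIT3 calls held (adjusted p = 0.0587 to 0.432).

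GBP1, a GTPase that attacks the membranes of intracellular pathogens, was the member whose treated and vehicle arrays separated most often. At 6 h it had 934.4, 846.7, 818.0 and 826.4 in vehicle, 644.5, 672.3, 465.1 and 520.8 with indacaterol, and 411.2, 802.1, 692.1 and 577.7 with both drugs. At 2 h it had 671.3, 716.0, 631.1 and 633.9 in vehicle, 441.9, 627.4, 502.2 and 383.8 with indacaterol, and 588.6, 431.2, 506.7 and 434.0 with both. In all 4 comparisons every treated array lay below every vehicle array. The differences were -0.57 and -0.49 at 6 h and -0.45 and -0.43 at 2 h, with adjusted p-values in limma of 0.745, 0.571, 0.635 and 0.782. With GSK 256066 at 6 h it had 846.0, 1005, 565.3 and 608.8, overlapping vehicle. Averaged over the times it was lower with indacaterol by 0.32 (block adjusted p = 0.0156 in limma, 0.152 without the block, 0.138 with it but without replicate 3) and with both drugs by 0.29 (0.0204, 0.171 and 0.0259).

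Separation of this kind also occurred across the genome, in 5.51% and 3.77% of all genes with indacaterol at 2 and 6 h and in 5% and 5.69% with both drugs. Among the other members, MX1, a GTPase that blocks influenza virus, was separated upward at 1 h with indacaterol (985.7, 1083, 619.3 and 1163 in vehicle against 1963, 1682, 1258 and 1342), where 4.18% of genes were separated. Its difference was 0.70 ± 0.52 (SE; adjusted p = 0.945 in limma). The remaining separations were of the dim CXCL11, higher with indacaterol at 2 h, and CXCL10, lower with GSK 256066 at 6 h, where 1.34% of genes were separated. No member was separated with indacaterol at 18 h (2.85% of genes), with GSK 256066 at 1, 2 and 18 h (2.5%, 1.88% and 2.58%) or with both drugs at 1 and 18 h (4.98% and 3.68%).

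**Figure D4:**
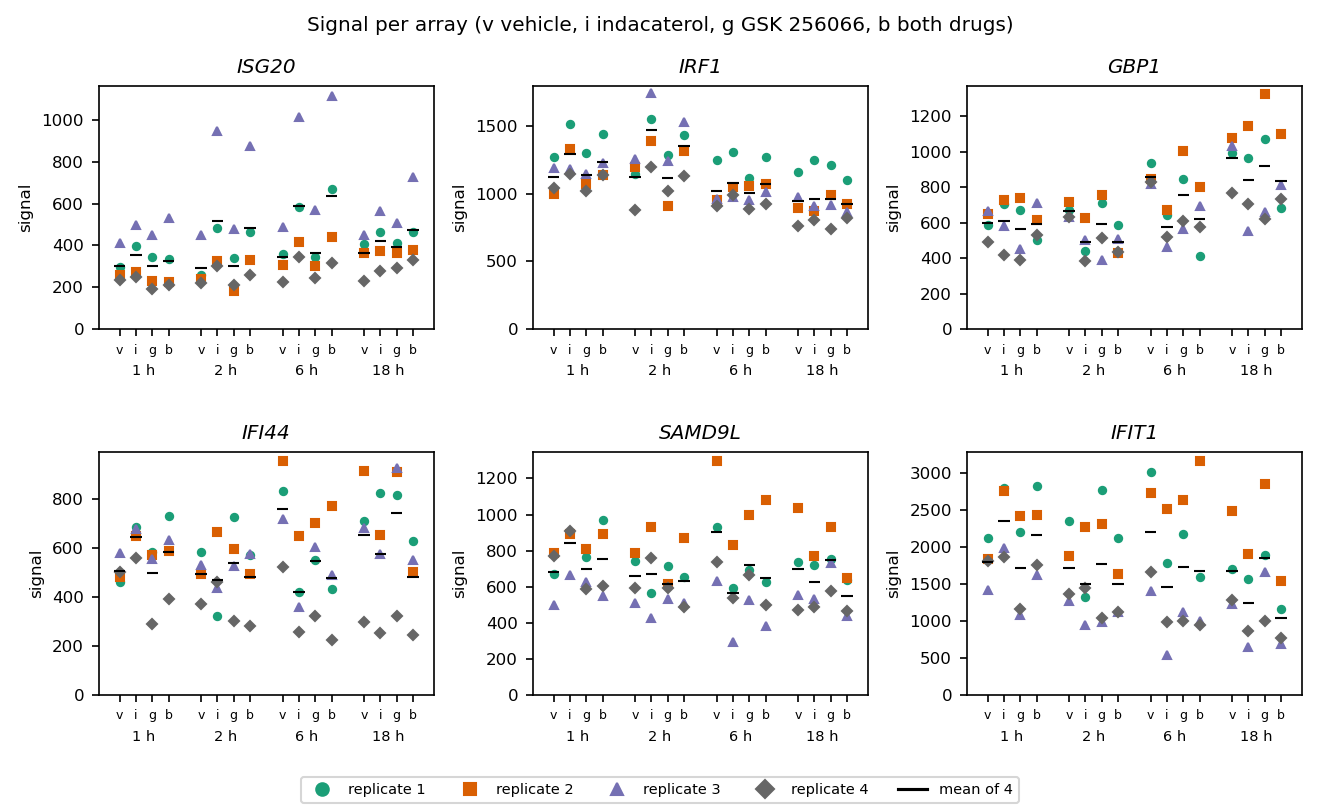
Signal on each array for ISG20, IRF1, GBP1, IFI44, SAMD9L and IFIT1 by treatment and time, with the replicate numbers marked. ISG20 is highest in replicate 3 and higher with indacaterol at 6 h than in vehicle in each replicate (1012 against 486.6 in replicate 3), and the 6 h GBP1 arrays with indacaterol all lie below vehicle.

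Both drugs together were also set against indacaterol alone. No member was called at 1, 2, 6 or 18 h (0 of 40 each, 0 at an unadjusted p under 0.05, limma), and 0% of all genes were called at each time (1.26%, 1.29%, 1.74% and 1.54% at the unadjusted threshold). The medians over the members were -0.15, 0.02, 0.12 and -0.10. For ISG20 at 6 h the difference was 0.07, with a 95% interval of -0.68 to 0.82, or -0.18 to 0.33 with the replicate block. For GBP1 it was 0.08 (-0.37 to 0.53, or -0.27 to 0.43 with the block).

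Without the block, members were called in comparisons of times but in none of treatments. Averaged over the 4 treatments, 6 of 40 members were called at 18 h against 1 h, a smaller share than the 18.5% of all genes. These calls therefore do not set the members apart from other genes. GBP1 rose by 0.56 ± 0.11 (SE; adjusted p = 0.000129 in limma), from a median signal of 601.4 (388.1 to 736.8, n = 16) at 1 h to 887.6 (553.4 to 1323) at 18 h, and was higher in 15 of 16 numbered pairs. DDX60, a helicase that assists RNA sensing, rose by 0.48 ± 0.12 (SE; adjusted p = 0.00278 in limma), from 737.8 (484.2 to 914.3) to 915.8 (545.4 to 1594), in 14 of 16 pairs. The ranges at the 2 times overlapped for both.

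The other 4 fell. IRF1 dropped by 0.34 on the log2 scale (adjusted p = 0.000354 in limma), from a median signal of 1167 (999.8 to 1518) to 915.1 (737.8 to 1252), in all 16 pairs. SAMD9 decreased by 0.44 (adjusted p = 0.00269 in limma), from 1004 (667.9 to 1276) to 712.0 (531.4 to 1197), in 13 of 16 pairs. IFIT2 decreased by 0.64 (adjusted p = 0.0341 in limma), from 728.9 (404.0 to 1341) to 514.6 (203.7 to 1256), in 12 of 16. IFIT5 decreased by 0.25 (adjusted p = 0.0496 in limma), in 14 of 16. Without replicate 1, the calls on DDX60, IFIT2, IFIT5 and SAMD9 were lost and 2 of 40 were called. Leaving out replicate 3 or replicate 4 also cost calls among the members called at 18 h.

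With the replicate block, 19 of 40 members were called at 18 h, against 30.9% of all genes, 11 higher and 8 lower. The higher ones added IFI27 (0.40), IFI44L (0.39), ISG20 (0.36), IFI6 (0.31) and OAS3 (0.30), with HERC5, TRIM22, IRF9 and DHX58 at 0.16 to 0.17. The lower ones added IFIT1 (-0.53), IFIT3 (-0.31), OASL (-0.29) and SAMD9L (-0.19). All 4 IFIT genes, which lie together on chromosome 10, were therefore called lower with the block. Without it, IFIT1 (adjusted p = 0.0603 in limma) and IFIT3 (0.292) were not called. For OAS3 a dim second probe set (mean signal 76.1) went the other way, at -1.03. Without replicate 3 the block called 15 of 40, against 29.3% of all genes. The calls on IFIT3, OASL, IRF9 and DHX58 were lost (adjusted p = 0.0684 to 0.273 in limma).

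**Figure D5:**
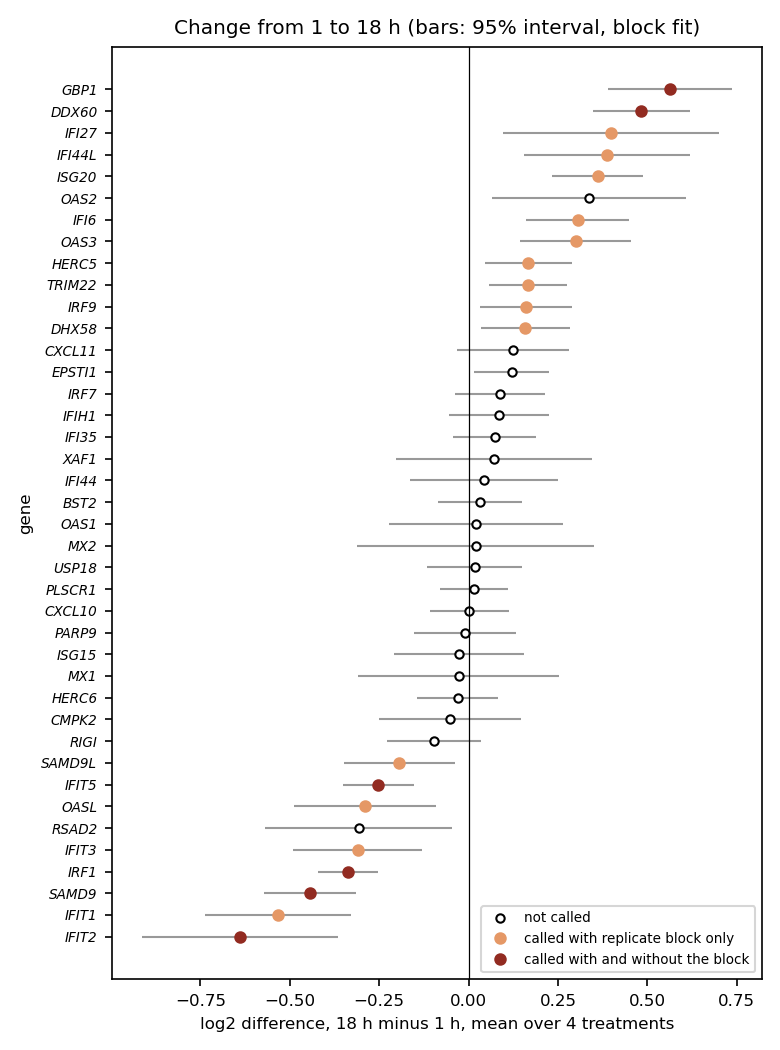
Differences between 18 h and 1 h, averaged over the treatments, on the log2(signal + 16) scale for each interferon-stimulated gene, with 95% intervals from the limma fit with the replicate block. GBP1 (0.56) and DDX60 (0.48) lie highest, IFIT2 lies lowest (-0.64), and dark points mark the 6 genes called with and without the block.

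At 6 h against 1 h, 1 of 40 members was called, EPSTI1, a smaller share than the 14.5% of all genes. It rose by 0.25 (adjusted p = 0.0137 in limma), from a median signal of 903.3 (752.9 to 1127) to 1089 (882.7 to 1462), in 15 of 16 pairs, and the call was lost without replicate 2 and without replicate 3 (no block). With the block 7 were called, against 26.6% of all genes. ISG20 (0.49), CMPK2 (0.29), EPSTI1 and GBP1 (0.23) were higher, and IFIT1 (-0.29), IRF7 (-0.23) and IRF1 (-0.20) lower. Without replicate 3 the block no longer called CMPK2 (adjusted p = 0.206 in limma) or IFIT1 (0.300), and it called a member not listed here. At 2 h against 1 h, 0 of 40 were called by limma (2 at an unadjusted p under 0.05), against 5.47% of all genes (15.6% unadjusted). The block called 6, against 14.4%, with ISG20 higher (0.20) and IFIT1 (-0.33), IFIT3 (-0.28), SAMD9 (-0.25), IRF7 (-0.24) and USP18 (-0.19) lower. Of these 6, IRF7 was called without replicate 3, against 12.1% of all genes.

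In vehicle alone, 0 of 40 members were called by limma at 2, 6 and 18 h against 1 h (0, 4 and 2 at an unadjusted p under 0.05), against 0.192%, 1.21% and 1.59% of all genes (12.5%, 11.3% and 9.68% unadjusted). At 6 h 38 of 40 differences were above 0 (49.8% of all genes), with a median of 0.30. With the block 3 were called at 6 h, against 7.06% of all genes. MX2 had 226.6, 474.0, 69.97 and 587.5 at 1 h and 611.0, 1430, 220.7 and 597.9 at 6 h, a difference of 1.10 (block adjusted p = 0.0296 in limma, 0.725 without it). MX1 had 985.7, 1083, 619.3 and 1163 at 1 h and 2223, 2737, 1282 and 1308 at 6 h, a difference of 0.92 (0.033 and 0.552). EPSTI1 had 855.3, 880.2, 806.7 and 988.7 at 1 h and 1221, 1260, 1019 and 1090 at 6 h, a difference of 0.37 (0.02 and 0.279). All 3 were higher in 4 of 4 pairs, most narrowly in replicate 4 for the MX genes. None of the 3 was called without replicate 3 (adjusted p = 0.0996 to 0.167).

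At 18 h in vehicle the block called 2 of 40, against 7.92% of all genes. DDX60 had 651.2, 810.5, 603.5 and 745.0 at 1 h and 1102, 1484, 802.3 and 857.7 at 18 h, a difference of 0.55 (block adjusted p = 0.00538 in limma, 0.408 without it, 0.0136 without replicate 3). GBP1 had 588.0, 646.9, 667.9 and 488.6 at 1 h and 992.9, 1079, 1030 and 765.6 at 18 h, a difference of 0.68 (0.00772, 0.142 and 0.013). Every GBP1 array at 18 h lay above every 1 h array.

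The surrounding pathway was read from gene lists. IFNB1, the type I interferon that epithelial cells make, had signals of 3.497 to 26.07 over the 64 arrays. Of the other interferon genes measured, IFNA1, IFNA2, IFNK, IFNE, IFNL1 and IFNL2 stayed under a signal of 100 on every array, and IFNG ran from 117.4 to 316.9. The median signal of an array ran from 101.1 to 127.4. No detection call was used, so these signals do not show which interferon genes are expressed. Among 33 other interferon-induced genes, the replicate number called 28, against 55.6% of all genes, and replicates 1 and 2 lay above 3 and 4 in 15, against 13.6% of the brighter genes. The same order held in 5 of 15 NF-kB-induced genes, 4 of 15 genes of nucleic acid sensing, 3 of 13 of signal transduction, 2 of 29 of interferon gamma response and antigen presentation, and 0 of 14 interferons and receptors. With indacaterol at 6 h, 29 of the 33 had differences below 0 (51.6% of all genes), but 0 were called by limma (1 at an unadjusted p under 0.05). SOCS3, a feedback inhibitor of JAK kinases, rose with indacaterol at 2 h by 2.11 (adjusted p = 0.00173 in limma) and with both drugs by 2.09 (0.00199), against 0.18 with GSK 256066 (1). CD274, which encodes the checkpoint ligand PD-L1, rose by 1.04 (0.00142) and 0.92 (0.00682). With indacaterol at 2 h, SOCS3 was the 1 gene called of 13 in signal transduction. CD274 was the 1 called of 29 in interferon gamma response and antigen presentation, where 1.22% of all genes were called.

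At 18 h against 1 h, 10 of 29 genes of interferon gamma response and antigen presentation were called, 9 of them higher. They were the immunoproteasome genes PSMB10 (0.62), PSMB9 (0.29) and PSMB8 (0.23), the peptide transporter genes TAP1 (0.32) and TAP2 (0.20), TAPBP (0.20), ERAP2 (0.28), HLA-E (0.22) and GBP3 (0.38), with APOL2 lower (-0.25). Of the 33 other interferon-induced genes, 8 were called, 6 higher, among them IFITM1 (0.31), LY6E (0.28) and PARP10 (0.26), and 2 lower, HELZ2 (-0.28) and ZC3HAV1 (-0.27). Of 15 genes of nucleic acid sensing, TRIM25 (-0.42), MAVS (-0.19) and MYD88 (-0.16) fell and TBK1 rose. Over all genes 11.4% were called higher and 7.12% lower.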

How the data were processed

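The values are probe-set intensities deposited by the authors, on a linear scale. Per the submitters' processing notes, the tools were PLIER and Transcriptome Analysis Console 4, whose settings are not given in the sources used here. Of 54675 probe sets, 62 were controls and 41091 had 1 gene symbol in the platform annotation. The brightest probe set of each of 19775 symbols was used, as log2(value + 16). limma 3.58.1 (R 4.3.3) fitted a mean per group over all 64 arrays (48 residual degrees of freedom), and p-values were adjusted over all genes (Benjamini-Hochberg, 0.05). The precision of arrays is limited by their number.

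The labels number replicates 1 to 4 in every group. The numbers were taken to pair arrays where every same-number correlation of deviations was over 0.1, which held in 14 of 19 comparisons of 2 groups and 6 of 6 averaged ones. It did not hold for indacaterol or GSK 256066 against vehicle at 2 h, both drugs against vehicle or indacaterol at 1 h, or vehicle at 2 h against 1 h. The fit with the replicate block without replicate 3, and that of each probe set, were chosen after seeing the data. The split of replicates 1 and 2 above 3 and 4 was not planned either.

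Any member could be named. Other genes came from the lists, or were the 10 most correlated with the members. Array values are given for members called in a comparison of 2 groups, and for MX1 and GBP1, chosen after their values were seen because their groups did not overlap. Members called only in averages over times or treatments are given by their differences, some with medians and ranges. The members and lists were chosen with earlier results of these data known. Promoters are RefSeq's (GRCh38.p14), matched by symbol.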

Additional observations from a re-analysis of the deposited data

Results flagged for a closer look

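A lone array was looked for in 72 checks of 4 arrays each. They covered the members' median in each of the 16 groups. They also covered ISG20, IRF1, IFI44, SAMD9L, GBP1, IFIT1, MX1 and MX2 in selected groups. A lone array was found in 2 checks, a smaller share than the 1 in 20 or so that chance gives. ISG20 had a signal of 450.8 in vehicle replicate 3 at 2 h, while the other 3 arrays of the group lay between 220.2 and 258.2. IRF1 had a signal of 1248 in vehicle replicate 1 at 6 h, while the others lay between 911.8 and 961.9. Each gene was also highest in that replicate number when averaged over the 16 arrays of each number. The mean signals in replicates 1 to 4 were 413.6, 312.8, 629.1 and 258.6 for ISG20. For IRF1 they were 1290, 1075, 1132 and 964.5.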

How the results depend on the processing

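The counts of called members stayed within 1.5 times of those reported in all 27 comparisons with a pseudocount of 1 or 64, quantile normalization, median centring, and without replicate 3 or 4, and in all 19 comparisons fitted on 2 groups only. The replicate block raised the count to 2 with indacaterol at 2 h, 7 at 6 h and 4 over the times. With both drugs it gave 1 at 2 h, 3 at 6 h, 1 at 18 h and 4 over the times. It gave 6, 7 and 19 for 2, 6 and 18 h against 1 h, 3 and 2 for vehicle at 6 and 18 h, and 2 for the treatment by time F-test (IFIT1 and RSAD2, adjusted p = 0.0457 and 0.0117 in limma, 0.876 and 0.626 without replicate 3). It changed no other count. With indacaterol at 2 h, where the numbers did not pair the arrays, the 2 were IRF1 (0.39, adjusted p = 0.00153 in limma) and ISG20 (0.69, 0.000154). With the block and without replicate 3, the counts were 2 with indacaterol at 2 h, 1 at 6 h and 2 over the times, 1, 1 and 2 with both drugs at 2 h, 6 h and over the times, 1, 6 and 15 for 2, 6 and 18 h against 1 h, and 2 for vehicle at 18 h.

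Leaving out 1 replicate without the block gave 0 to 2 called members for 6 h against 1 h, 2 to 8 for 18 h against 1 h (2 without replicate 1) and 36 to 38 for the replicate number. Similar counts can hold different members, so calls were followed in the 59 pairs of member and comparison called with or without the block. Leaving out replicates 1, 2, 3 and 4 in turn lost 4, 1, 2 and 3 calls of the fit without the block. It gained 1, 1, 4 and 1. With the block and without replicate 3, 0 of the 59 differences reversed their sign. With the mean of a gene's probe sets, 1 member was called with both drugs over the times (GBP1, -0.25, adjusted p = 0.0184 in limma) and 0 at 6 h against 1 h. OAS3 turned to -0.36 at 18 h against 1 h there, since its dim second probe set differs in sign. With dim genes left out, 2 were called at 6 h against 1 h. The cause of the other changes was not tested. Dim genes such as CXCL10 and CXCL11 are limited by signal near background.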
